A study of Mus musculus with 14 samples.

Results

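The 38 integrin and laminin genes of the mouse were examined in the H3K4me1 sites of immortalized mouse embryo fibroblasts. They are the protein-coding genes of GENCODE release M21, a gene annotation of mm10, whose symbol is Itga or Itgb followed by a number or letter, or Lama, Lamb or Lamc followed by a number. Itgb3bp, Itgb1bp1, Itgb1bp2 and Itgbl1 were left out, as they encode binding or related proteins and not integrin chains. This gave 27 integrin and 11 laminin genes of 21938 protein-coding genes. The cells, clone NG3, carry Ash2l alleles from which exon 4 was deleted by tamoxifen-activated Cre-ER, and live on human ASH2L fused to a degradable FKBP domain and HA tags (FKBP-HA2-ASH2L), delivered by lentivirus. All groups share this background and come from this single clone. H3K4me1, a methylation of histone H3 found at enhancers and along the flanks of promoters, was measured by ChIP-seq without dTAG, the PROTAC that degrades the fusion protein, and after 30 min, 2 h, 4 h, 8 h and 16 h of dTAG, with 2 replicates per condition, together with an input of the control and of the 16 h treatment. The table used here pools these into a single set of 160144 sites and holds only their positions. It gives no value per library, replicate or time point, so change upon ASH2L loss was not analysed here and no test was made. The paper reports that sites with more H3K4me1 after dTAG lay almost only at promoters. A site of the pooled set, or its width, may come from treated cells, untreated cells or both, and these cannot be told apart. Where a site was not called, too few reads and a lack of H3K4me1 cannot be told apart.

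Integrins are receptors made of an alpha and a beta chain that tie the cytoskeleton to the extracellular matrix or to other cells. Laminins are secreted trimers of an alpha, a beta and a gamma chain that form the scaffold of basement membranes and are bound by several integrins. Fibroblasts live on fibronectin, collagen and vitronectin and use the chains that bind these, while the beta2 and beta7 families serve leukocytes, and Itga6 with Itgb4 anchors epithelia to laminin. The members were therefore sorted by textbook knowledge into 14 fibroblast genes (Itga1, Itga2, Itga3, Itga5, Itga11, Itgav, Itgb1, Itgb3, Itgb5, Lama2, Lama4, Lamb1, Lamb2 and Lamc1), 9 leukocyte and platelet genes (Itga2b, Itgad, Itgae, Itgal, Itgam, Itgax, Itgb2, Itgb2l and Itgb7), 6 epithelial genes (among them Itga6, Itgb4, Itgb6, Lama3 and Lamb3) and 9 genes of other tissues (Itga4, Itga7, Itga8, Itga9, Itga10, Itgb8, Lama1, Lama5 and Lamc3). Several chains are used by more than a single cell type, for example Itga4 by leukocytes and mesenchymal cells, and Itgb3 by platelets.

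For the cell type label, promoters of marker genes were inspected. A promoter was the ± 1 kb around the most upstream annotated transcription start site (TSS), a window of 2001 bp, and a site counted from 1 bp of overlap. Of 12 fibroblast markers, 10 had a site, Col3a1 and Lum being without, against 63.9% of all protein-coding promoters. The share of the gene body covered had a median of 10.1% over these markers, from 0% at Lum to 92.7% at Col1a1, a main collagen chain of fibroblasts, and it was under 3% also at Dcn, Fap, Col3a1 and Postn. Of 10 leukocyte markers 3 had a site (Csf1r, Lyz2 and Laptm5), and those without included Ptprc, Cd3e and Spi1. Of 10 epithelial markers 8 had a site, of 5 endothelial markers 3, and of 4 platelet markers 1. The median window cover was 1087 bp for the fibroblast markers, 841.5 bp for the epithelial and 0 bp for the leukocyte markers. Thus more fibroblast than leukocyte markers had a site, while the fibroblast and epithelial markers were alike in this count. None of the 10 leukocyte markers has a CpG island in the window, against 4 of 12 fibroblast and 6 of 10 epithelial markers, and 3 of 10 is near the 29.8% found for all promoters without an island.

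A few sequences show the kinds of promoter behind these counts. Promoters of 300 bases, from 250 bases before to 50 bases after the RefSeq start of transcription (GRCm38.p6, the sequence of mm10), were available for 24 of the 38 members, with 27 promoters in all. They were searched on both strands for GGGCGG (the GC box bound by SP1 and related factors), GAGGAAGT (a word of the PU.1 type, PU.1 being the ETS factor of myeloid cells) and TGANTCA (the AP-1 word), none of which contains another, and matches are printed in capitals. Itgb1 and Lama5 are shown as island promoters that lie within sites, Itgax as a leukocyte promoter within a site, and Itgam as its neighbour without a site.
Itgb1 promoter (chr8:128685404-128685703, plus strand): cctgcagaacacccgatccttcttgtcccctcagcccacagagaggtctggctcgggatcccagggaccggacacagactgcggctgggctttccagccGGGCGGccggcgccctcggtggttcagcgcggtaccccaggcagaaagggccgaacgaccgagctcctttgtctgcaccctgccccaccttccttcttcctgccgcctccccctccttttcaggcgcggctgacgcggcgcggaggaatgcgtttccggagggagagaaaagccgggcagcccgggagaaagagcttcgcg
Lama5 promoter (chr2:180225810-180226109, minus strand): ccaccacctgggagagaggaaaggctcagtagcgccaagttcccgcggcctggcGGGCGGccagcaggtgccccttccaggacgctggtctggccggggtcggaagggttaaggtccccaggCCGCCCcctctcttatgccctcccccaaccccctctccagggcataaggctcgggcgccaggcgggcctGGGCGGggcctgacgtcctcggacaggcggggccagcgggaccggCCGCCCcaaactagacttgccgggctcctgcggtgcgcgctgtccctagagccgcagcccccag
Itgax promoter (chr7:128129300-128129599, plus strand): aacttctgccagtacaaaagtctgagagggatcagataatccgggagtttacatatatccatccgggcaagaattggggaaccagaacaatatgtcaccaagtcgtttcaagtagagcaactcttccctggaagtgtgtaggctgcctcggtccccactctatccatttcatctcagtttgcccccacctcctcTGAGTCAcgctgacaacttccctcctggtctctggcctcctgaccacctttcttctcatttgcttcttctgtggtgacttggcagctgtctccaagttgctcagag
Itgam promoter (chr7:128062390-128062689, plus strand): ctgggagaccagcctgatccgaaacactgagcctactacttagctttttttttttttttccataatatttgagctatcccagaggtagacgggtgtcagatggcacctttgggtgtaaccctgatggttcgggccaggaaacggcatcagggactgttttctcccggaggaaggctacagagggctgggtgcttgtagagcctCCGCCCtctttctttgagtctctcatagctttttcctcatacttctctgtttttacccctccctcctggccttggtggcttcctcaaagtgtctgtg

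All 300 bases of Itgb1, Lama5 and Itgax lay in H3K4me1 sites, and none of those of Itgam. The Itgb1 stretch holds 27 CpG dinucleotides and a GC content of 67.3%, that of Lama5 24 and 72.7%, while Itgax holds 5 and 50.0% and Itgam 6 and 50.3%. Thus Itgax and Itgam are alike in CpG and GC content and differ in the site. Lama5 has 4 GC boxes, and Itgam, which has no site, has 1. GC boxes were found in 12 of the 27 member promoters, against 35.7% of 32851 promoters in the RefSeq table, PU.1-type words in 5 of 27 (Itga11, Itgav, Itgb2l, Itgb7 and the downstream start of Itgb6) against 3.20%, and AP-1 words in 3 of 27 (Itgax and the downstream starts of Itga3 and Itga9) against 7.81%. Of the 5 genes with a PU.1-type word, Itga11 and Itgav are on the fibroblast list, so the word is not particular to the leukocyte list. These matches are descriptions of the letters and not of binding.

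Of the 38 promoters, 28 overlapped an H3K4me1 site, or 73.7%, against 63.9% of all protein-coding promoters. Among the 3530 protein-coding genes of 50 to 150 kb, a class nearer to the members in length, the share was higher than in the members, at 78.7%. The fibroblast genes had a site at 13 of 14 promoters, those of other tissues at 8 of 9, the epithelial genes at 4 of 6 and the leukocyte and platelet genes at 3 of 9. The median of the window covered was 1865 bp for the fibroblast genes, 1238 bp for those of other tissues, 828 bp for the epithelial genes and 0 bp for the leukocyte and platelet genes, compared with 877 bp over all protein-coding genes. The TSS itself lay in a site for 26 members, 13 of them fibroblast and 2 leukocyte genes, while it did so for 39.5% of protein-coding genes. The lists are short and were written with earlier results of these data known, so these shares describe the named genes.

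**Figure D1:**
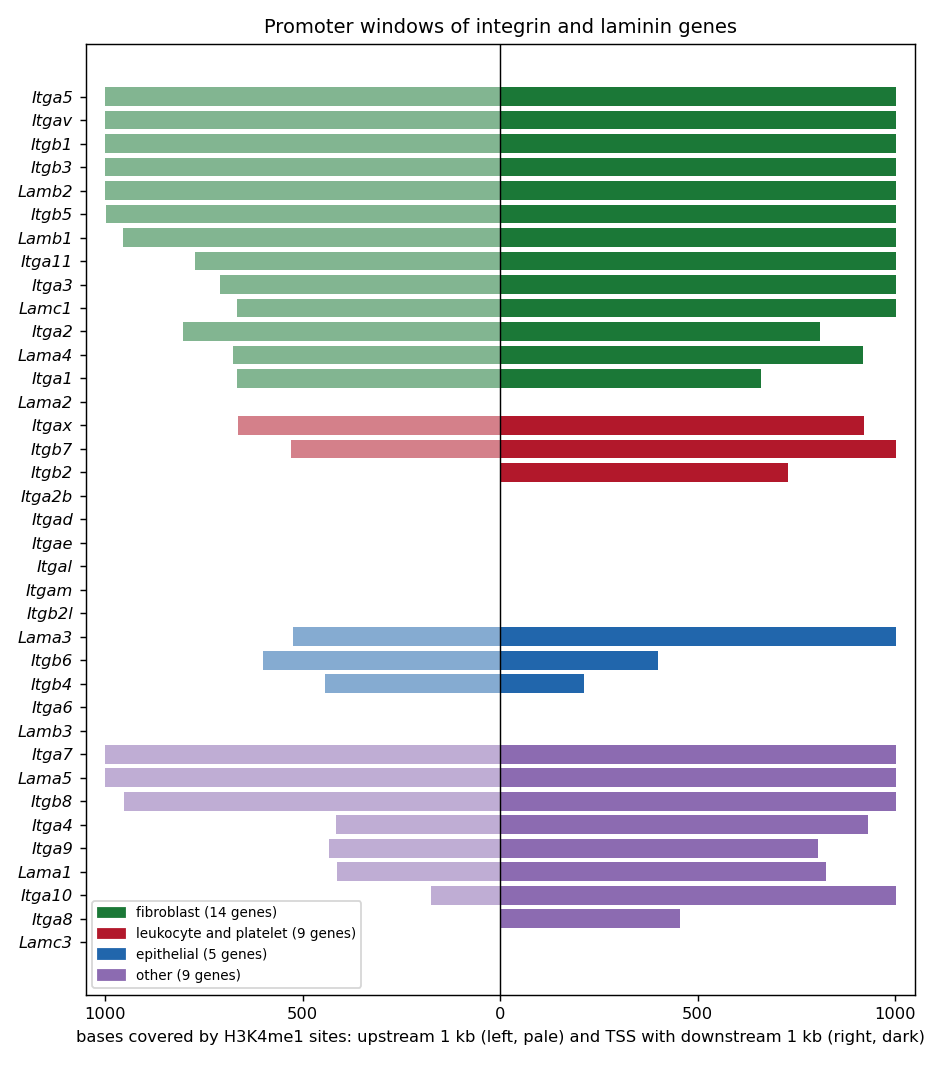
Bases covered by H3K4me1 sites in the 1 kb upstream (left, pale) and in the TSS and the 1 kb downstream (right, dark) of the most upstream TSS of 37 of the genes, coloured by list; each bar is a count of bases in the pooled set, without replicates. The windows of 13 of 14 fibroblast genes hold a site, and 6 of the 9 leukocyte and platelet genes have no bar.

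CpG islands, stretches rich in CpG that many promoters carry, are closely tied to the presence of a site, so the members were also read by island. An island lay in the window of 19 of 38 members and of 53.9% of protein-coding promoters. Of the 19 with an island 18 had a site, close to the 93.0% of all island promoters, and of the 19 without an island 10 had a site, against 29.8% of all such promoters. Among the promoters without an island, 5 of 6 fibroblast genes had a site, namely Itga1, Itga2, Itga11, Lama4 and Lamb2. None of the 9 leukocyte and platelet genes has an island in the window of the most upstream TSS. Their 3 of 9 is near the 29.8% of all promoters of this kind. The lists thus differ in islands as well as in sites, and their part in the leukocyte count cannot be told apart. Of the epithelial genes, 3 of 3 with an island and 1 of 3 without had a site, and of the genes of other tissues 7 of 8 and 1 of 1.

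In the pooled set of treated and untreated cells, the main receptors of fibroblasts were covered over the whole window. Itgb1, on chromosome 8 from 128685654 to 128733200, encodes the beta chain shared by most matrix receptors, and a site of 2080 bp covered all 2001 bp of its window. Itgav (chromosome 2, 83724397 to 83806916), the alpha chain of the vitronectin receptors, was covered over 2001 bp by a site of 3858 bp, and its partners Itgb3 and Itgb5 over 2001 bp and 2000 bp. At Itga5 (chromosome 15, 103344286 to 103366763), the alpha chain of the fibronectin receptor, a single site of 15271 bp reached from the upstream region far into the gene. Of protein-coding genes 93.2% had less than 2001 bp of the window covered.

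The alpha chains of collagen receptors among the fibroblast genes had less of the window covered, and none has an island in it. The receptor genes given just above all have one. The median cover was 2000.5 bp for fibroblast genes with an island and 1604.5 bp for those without. Ligand and island thus cannot be told apart here. Itga11, which binds fibrillar collagen, was covered over 1774 bp by a site of 8648 bp that ran on into the gene. Itga2 and Itga1, neighbours on chromosome 13 that are both read from the minus strand with a gap of 20995 bp, were covered over 1613 bp and 1327 bp by 2 sites each. The window of Itga1 also holds the TSS of the transcript Gm49395, so the site cannot be given to either start alone. Itga3, a laminin receptor, was covered over 1710 bp.

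Of the laminins of fibroblasts, Lamb1 and Lamc1, chains of the most widely used laminin trimers, were covered over 1956 bp and 1668 bp, Lamb2 over 2001 bp and Lama4, a chain of vessel walls, over 1596 bp. The exception was Lama2 on chromosome 10 (26980036 to 27619758), the alpha chain of the muscle basement membrane and the longest of the members at 639723 bp. Its most upstream TSS had no site within 1 kb, and the nearest began 2164 bp downstream. That site, of 1346 bp, lay at the start of the protein-coding transcripts, 2915 bp downstream of the most upstream TSS.

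For the leukocyte and platelet genes, sites at the promoter were found at Itgb2, Itgax and Itgb7. Itgb2 (chromosome 10, 77530252 to 77565708), the common beta chain of the leukocyte receptors, had a site of 1786 bp that began 273 bp downstream of the TSS and left the TSS and the upstream 1 kb free. Itgax, the CD11c chain of dendritic cells, was covered over 1584 bp by a site across its TSS, and Itgb7, the beta chain of gut-homing lymphocytes, over 1531 bp. Their partners Itgal, Itgam, Itgad and Itgae and the platelet chain Itga2b had none. Counted from the TSS, with upstream positions as negative numbers, the nearest site began at 13847 bp for Itgal and at 2084 bp for Itga2b, and ended at -9673 bp for Itgam, -2902 bp for Itgad and -1418 bp for Itgae.

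Itgam, Itgax and Itgad lie next to each other on chromosome 7 in the same direction, with gaps of 11055 bp and 3718 bp, and together span 161177 bp (128062640 to 128223816). This stretch held 13 sites that covered 5.92% of it. The site at Itgax was the widest of those centred in these 3 genes, at 1584 bp. Itgb2l, a paralog of Itgb2 on chromosome 16, was the only member with no site in its body, and its nearest site lay at -10070 bp from the TSS.

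When a site within 1 kb of any annotated TSS was counted, 35 of 38 members had one, against 67.8% of protein-coding genes. Of the 3530 protein-coding genes of 50 to 150 kb, nearer to the members in length, 3016 had one in this setting. This setting raised the leukocyte and platelet genes from 3 to 6 of 9, by Itga2b, Itgad and Itgal, and all 14 fibroblast and all 6 epithelial genes then had a site. The members still without were Itgae, Itgam and Itgb2l. At Itgad the site lay at a start 19570 bp downstream and covered 726 bp of its window, and at Itgal at a start 13258 bp downstream with 412 bp, both inside the gene. At Itga2b up to 1678 bp were covered at its upstream starts and up to 1338 bp at starts from 8185 bp downstream, with islands at both. Whether these starts are used in the cells was not tested.

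The epithelial genes also depended on the start that was read. Itga6 (chromosome 2, 71745616 to 71858416), the alpha chain of hemidesmosomes and of laminin receptors, had no site at its most upstream TSS. At the start of its coding transcripts, 41324 bp downstream, 1411 bp were covered, and island sequence makes up 1098 bp of that window. Lamb3 (chromosome 1, 193207699 to 193343878) is, like Lama3, a chain of the epidermal laminin. It had no site at its upstream coding start, but 1349 bp were covered at a start 94294 bp downstream. Lama3 was covered over 1526 bp at its most upstream TSS and not at its other coding start 170380 bp downstream. Itgb4, the partner of Itga6 in hemidesmosomes, was covered over 656 bp, and Itgb6, a receptor that activates TGF-beta in epithelia, over 1000 bp. Over all members, 18 had coding starts at least 5 kb apart, of which 4 had a site at every start region (Itga3, Itgb1 and Itgb5 among them) and 14 at some only. These counts were not made for all protein-coding genes, so they describe the named genes and not a trait particular to them.

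Most of these 14 had a site at the upstream coding start and at none of the downstream ones. The downstream coding starts without a site lay 30157 bp from the most upstream TSS at Itga2, 77452 bp at Itgav, 103642 bp at Lamc1 and 563113 bp at Lama2. They lay at 48917 bp in Itgb6, 14871 bp in Itgb7, 19955 bp in Itga7, 169370 bp in Itga8, and 104967 bp and 200594 bp in Itga9. Lama3, given above, and Itga6 are the remaining genes of this kind, and at Itga6 the coding start without a site lay at 81146 bp. The coding start of Itgad at 49236 bp also had no site. By contrast, downstream coding starts were covered over 498 bp at Itga3, 743 bp at Itgb1 and 2001 bp at Itgb5.

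Among the genes of other tissues, Itga7, a laminin receptor of muscle, and Lama5, the alpha chain of many mature basement membranes, were covered over all 2001 bp. At Lama5 the site measured 19095 bp and was the widest at any member, and 35.2% of the gene was covered, the largest share among these genes. Itga10, a collagen receptor of cartilage without an island, was covered over 1176 bp of the window and 29.4% of the gene. Itgb8 was covered over 1955 bp, Itga4 over 1347 bp, and Lama1, an alpha chain of embryonic basement membranes, and Itga9 over 1238 bp each. At Itga8, a receptor of kidney mesenchyme and smooth muscle, a single site of 454 bp began 30 bp downstream of the TSS, and the window also holds the start of E030013I19Rik. Lamc3 was the only member with an island in the window, of 460 bp, and no site, a state it shared with 834 of 11830 island promoters, counting itself. Its nearest site began 8811 bp downstream.

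**Figure D2:**
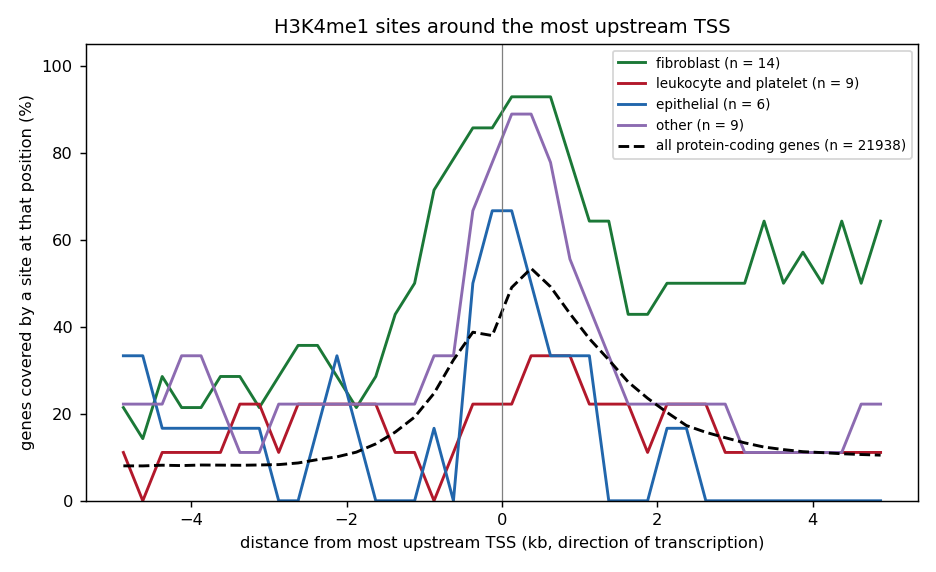
Share of genes in each list covered by an H3K4me1 site at positions 250 bp apart, from 5 kb upstream to 5 kb downstream of the most upstream TSS; the dashed line is all 21938 protein-coding genes. At 375 bp downstream 13 of 14 fibroblast, 8 of 9 other, 3 of 6 epithelial and 3 of 9 leukocyte and platelet genes were covered, beside 53.4% of protein-coding genes.

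Around the TSS, the cover of all protein-coding genes was higher downstream than upstream, with medians of 548 bp in the 1 kb downstream and 200 bp upstream. The fibroblast genes had medians of 1000 bp and 879 bp. At 875 bp upstream 10 of 14 fibroblast genes were still covered, 1 of 6 epithelial and 0 of 9 leukocyte and platelet genes, beside 24.7% of protein-coding genes.

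Within the gene bodies, 411 sites were centred in the 38 members. At least 1 site was found in 37 members, against 69.4% of protein-coding genes, and in 3261 of the 3530 protein-coding genes of 50 to 150 kb. The members are long, with a median of 64051.5 bp against 17425 bp, so rates and shares of bases were used. The median member had 1.15 sites per 10 kb and 12.9% of the gene covered. For all protein-coding genes the medians were 0.73 sites per 10 kb and 6.47%, and for the 3530 protein-coding genes of 50 to 150 kb they were 0.81 and 6.35%. By list, the median share covered was 19.2% for the fibroblast genes, 12.9% for the epithelial, 6.75% for the leukocyte and platelet genes and 4.94% for those of other tissues. The lists overlap: fibroblast genes ranged from 2.03% at Lama2 to 48.1% at Itgb5, and leukocyte and platelet genes from 0% at Itgb2l to 25.3% at Itga2b.

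**Figure D3:**
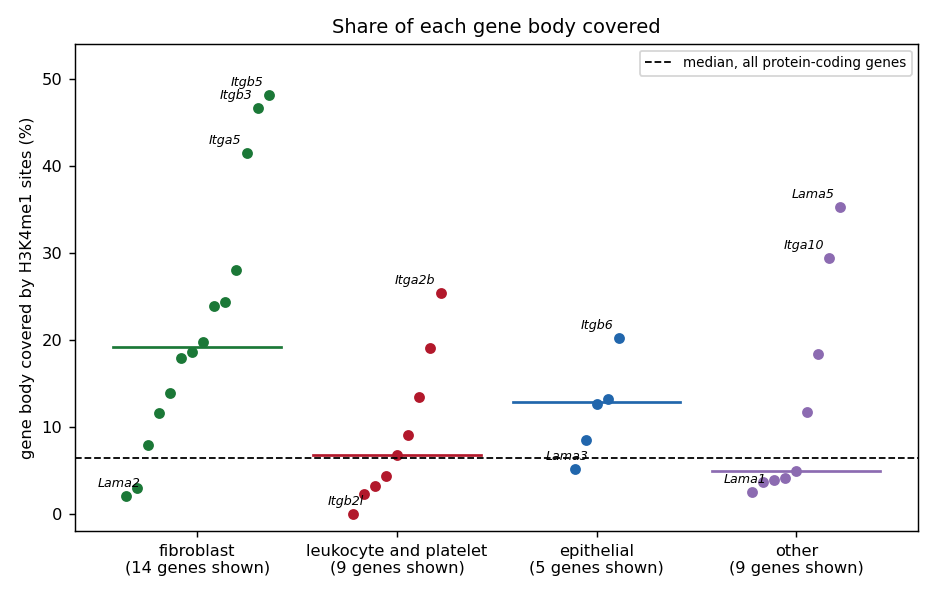
Share of each gene body covered by H3K4me1 sites, 1 point for each of 37 genes, with the median of each whole list (coloured line) and of all protein-coding genes (dashed line, 6.47%). The vitronectin and fibronectin receptor genes Itgb5, Itgb3 and Itga5 are at the top with over 40% covered, while Lama2, in the same list, is at 2.03%.

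Itgb5 (chromosome 16, 33829665 to 33949338) held 29 sites, among them one of 10104 bp that was centred 60275 bp into the gene, and held 2 annotated downstream starts, of which that at 62276 bp is a coding start. Itgb3 (chromosome 11, 104608000 to 104670476) held 15 sites, the widest, of 4795 bp, in an intron, and 46.6% of it was covered, including the promoter site that is centred upstream of the gene. At Itga5 41.4% was covered by its single site. In these genes the cover exceeded that of 93.1%, 92.8% and 91.3% of protein-coding genes. By contrast Itgb1, with 11 sites, was covered over 13.9%, and the median width of its sites was 348 bp.

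By number, Lamc1 on chromosome 1 (153218922 to 153332786) came first with 36 sites, or 3.16 per 10 kb, more than 93.0% of protein-coding genes. Itgb6, of the epithelial list, held 27 sites and was covered over 20.2%, with a widest site of 5891 bp. With 2.17 sites per 10 kb it thus exceeded the median of the fibroblast genes, 1.73 per 10 kb. Itga6, Itgb4, Lama3 and Lamb3 lay below it, and of the leukocyte and platelet genes Itga2b lay above it, with 3 sites in 16826 bp.

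**Figure D4:**
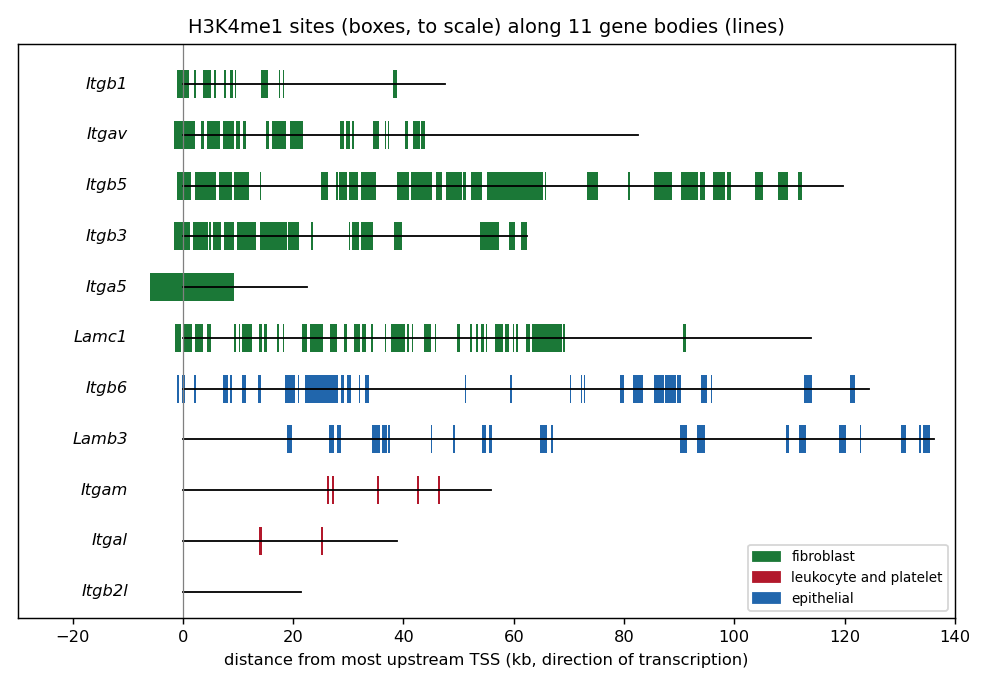
H3K4me1 sites, drawn to scale as boxes coloured by list, along 11 gene bodies, drawn as lines from the most upstream TSS at 0 kb. Itgb5, with 29 sites, and Lamc1, with 36, hold sites along much of their length, in Lamc1 with a single site in the last 40 kb, whereas Itgam holds 5 narrow sites, Itgal 2 and Itgb2l 0.

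The longest members did not hold the most sites, and a relation of number to length was not tested. Lama2 held 24 sites over 639723 bp (0.38 per 10 kb), Itga9 17 over 294314 bp (0.58) and Lama1 3 over 125389 bp (0.24), the lowest rate among members with a site. The share of the gene covered was 2.55% at Lama1, the smallest of the other tissues, and 5.16% at Lama3, the smallest of the epithelial genes. At 113865 bp, Lamc1 is shorter than these 3 and held more sites than any of them. Itgam and Itgal, with 5 and 2 sites, reached 0.90 and 0.51 per 10 kb, and the widest sites centred in them were 478 bp and 538 bp.

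**Figure D5:**
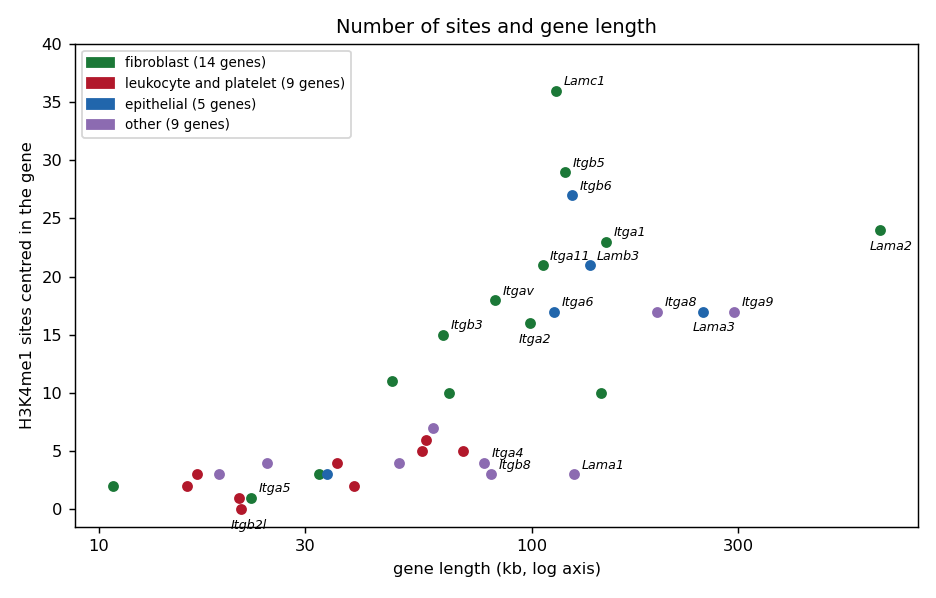
Number of H3K4me1 sites centred in each of 37 genes against gene length on a log axis, coloured by list. Lamc1 has the most sites, 36, and Lama2, the longest gene, has 24, while Lama1 has 3 at 125389 bp.

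Of the 411 sites, 370 were centred in introns and 41 in exons of the member. A TSS of the member lay within 1 kb of 53 sites, and 343 or 83.5% had no TSS of any gene within 1 kb, compared with 81.2% of all sites. The median width was 683 bp, against 603 bp for all sites. At least 5000 bp wide were 7 of the 411, beside 1500 of all 160108 sites on chromosomes. The 7 sites were centred in Itga5, Itga7, Itga11, Itgb5, Itgb6, Lama5 and Lamc1. Of the 411 sites, 258 were centred in the upstream part of the gene, before its midpoint, sites at its start included. This share was not computed for other genes, so it is not read as a trait of the members.

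A few sites in the bodies belong to starts of other genes. The widest site in Itgae, of 2682 bp, held the TSS of Haspin, a histone kinase gene that lies inside an intron of Itgae, and without it the widest in this gene of intraepithelial T cells would be 1086 bp. In Itga1 the widest site, of 3714 bp, held the TSS of Pelo. Sites inside Lamb3 held those of Hsd11b1 and G0s2. In all, 10 of the 411 sites held the start of another gene, 5 in fibroblast, 4 in epithelial and 1 in leukocyte genes.

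The sites in the bodies were searched for the AP-1 word TGANTCA and for GGAATG, the word of the TEAD factors, on both strands of the 300 bp at the centre. AP-1 and TEAD factors are both active in cultured fibroblasts, and neither word contains the other. AP-1 words were found in 68 of 411 sites or 16.5%, against 18.4% of all sites, and in 57 of the 343 sites away from TSSs or 16.6%, against 20.2% of all such sites. TEAD words were found in 86 sites or 20.9%, against 20.8%, and in 72 of the 343, against 21.9% of all sites away from TSSs. In the fibroblast genes AP-1 words were in 35 of 219 sites (16.0%), and in the leukocyte and platelet genes in 9 of 28 (32.1%). TEAD words were likewise in 37 of 219 (16.9%) and in 9 of 28 (32.1%), so the difference between these lists is not particular to AP-1. In the members both words were thus about as frequent as in the whole set, and the 28 sites of the leukocyte genes are few. The centre of a distal site of Lamc1, the member with the most sites, is shown with its AP-1 word in capitals.
Lamc1 site centre (chr1:153266642-153266941, plus strand): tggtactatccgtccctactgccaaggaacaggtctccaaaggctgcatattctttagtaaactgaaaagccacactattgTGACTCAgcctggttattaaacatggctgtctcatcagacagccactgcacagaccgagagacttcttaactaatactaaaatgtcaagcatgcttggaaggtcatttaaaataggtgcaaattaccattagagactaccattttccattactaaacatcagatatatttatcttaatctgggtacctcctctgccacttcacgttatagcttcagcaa

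The Lamc1 site is 5435 bp wide and centred in an intron 65994 bp downstream of the TSS. It has 1 AP-1 word in these 300 bp and no TEAD word.

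Integrins signal through proteins that bind their tails and link them to actin. A list of 32 genes held these and other partners of integrins, among them genes of hemidesmosomes. Of the 32, 25 had a site at the promoter, against 63.9% of all protein-coding promoters. An island lay at 22 of the 32, and the median share of the gene covered was 23.6%. Of 22 genes of general use 20 had a site, with a median of 32.9% of the gene covered. Zyx, a LIM protein of focal adhesions, was covered over 91.2%, Ilk, the integrin-linked kinase, over 84.0%, and Bcar1, a scaffold of focal adhesion signalling, over 80.4%. Tln2 and Lims2, a talin and a PINCH gene, were without, and both had a site at another annotated TSS. Of the 3 kindlins, which activate integrins, Fermt2, the form of mesenchymal cells, was covered over 1634 bp of the promoter and 34.3% of the gene, whereas Fermt1 of epithelia and Fermt3 of blood cells had no site at the promoter or in the gene. Parvg, the parvin of blood cells, likewise had none, while Parva and Parvb were covered over 2001 bp each. Of the 5 genes of leukocytes, 2 (Apbb1ip and Skap2) had a site at the promoter, and of the 5 of hemidesmosomes and epithelia 3 had one (Plec, Dst and Cd151). Both lists also hold covered genes. Cd151, Plec and Dst were covered over 93.9%, 60.9% and 22.6% of the gene, and Col17a1 over 3.21%. Fyb, with 33 sites in the gene and none at the promoter, was covered over 16.6%, Skap2 over 7.93% and Apbb1ip over 6.05%.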

How the data were processed

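H3K4me1 was measured in 12 ChIP-seq libraries, 6 conditions in 2 replicates, with 2 inputs. According to the study's methods, Trim Galore was used for trimming, BWA for alignment (mm10), samtools for filtering and Picard for merging, and broad peaks came from Macs. Versions and thresholds are not given in the sources used here. The values in the table used here, as deposited by the authors, are positions in bases, a start and an end for each peak of a single set over all samples. The table holds no count, signal or p-value, and the depth per library is unknown. The test of changed sites planned for counts was therefore not run.

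Starts were read as counted from 0 and are printed counted from 1. Of 160144 sites, 36 on scaffolds were left out. Overlaps with GENCODE release M21 used Python 3.11.15, with numba 0.67.0 and numpy 2.4.6 for the computations and matplotlib 3.10.9 for the plots. Release M25, which the study names, was not used here. CpG islands were called on repeat-masked GRCm38.p6 (score 17 per CpG and -1 per other base, over 200 bp, at least 50% GC, observed to expected CpG over 0.6), giving 16203. A site was in a gene if its centre was. Coding starts at least 5 kb apart counted as separate regions. The functions were tested on simulated data. The members and lists were chosen with earlier results of these data known. All members are counted, and 1 gene of the epithelial list, in the counts and medians, is not reported here by itself. Those with the largest and smallest promoter cover in each list, those that depart from their list, those with the most or widest sites and those with several start regions are given with values. The alternatives concern the TSS, the window, the overlap, narrow or merged sites, longer islands, and where Itga4 and Itgb2l belong.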

Additional observations from a re-analysis of the deposited data

How the results depend on the processing

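No paired analysis was possible because positions without a value for any library are what the table used here gives, and the alternatives for changed sites, with a replicate block or with replicates left out, were not run for the same reason. Depth is unknown, so absence of a site is not absence of H3K4me1. Cover and number of sites depend on how the authors' caller joined neighbouring regions.

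Of 64 alternatives over 15 results, 38 stayed within the limits set (1.5 times for a count, the 95% binomial interval for a share, no change for a median) and 26 moved. For the members, the fibroblast, epithelial and adhesion genes, 1.5 times the main count reaches or exceeds the list, so no rise could pass. Epithelial promoters with a site, for example, rose from 4 to 6 of 6 with any annotated TSS and count as within the limits. Over its alternatives the number of member promoters with a site was 27 to 35, and of fibroblast promoters 13 or 14. With any annotated TSS, leukocyte and platelet promoters with a site rose from 3 to 6 of 9. With sites of at least 500 bp, 255 sites were centred in the members, and with sites within 1 kb merged 269, as both alternatives leave fewer sites.

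The median rate, 1.15 per 10 kb, became 0.83 with sites of at least 500 bp, 0.74 with merged sites, 1.05 without the first 1 kb of the gene and 1.18 with any overlap. For these alternatives except any overlap, and in the same order, the median share covered became 10.6%, 14.5% and 11.8% over all members, 19.0%, 21.7% and 16.3% over fibroblast genes, and 11.3%, 14.9% and 13.0% over epithelial genes. For leukocyte and platelet genes it became 6.63% with sites of at least 500 bp and 6.84% without the first 1 kb. Over all protein-coding genes, an alternative chosen after seeing the data, it was 5.20%, 7.43% and 3.84%. Islands of at least 500 bp left 13 of 19 member promoters with an island. When whole sites were searched, 145 of 411 sites (35.3%) held an AP-1 word, and 35.5% of all sites.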

Other observations

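Ligands of the integrins, a list not described above, were read in the same way. All 12 genes of matrix and basement membrane ligands had a site at the promoter, against 63.9% of all promoters. Of the 12, 10 have an island, and 93.0% of all island promoters had a site. The cover ranged from 313 bp of the window at Nid1, the laminin linker nidogen, to 2001 bp at Tnc, Col4a1 and Col4a2. Col4a1 and Col4a2, the main collagen chains of basement membranes, were covered over 41.6% and 51.3% of the gene, and Hspg2, the proteoglycan perlecan, over 35.9%, with a site of 22313 bp. Ltbp1, which holds latent TGF-beta in the matrix, had 96 sites. Fn1, encoding fibronectin, was covered over 1139 bp of the promoter and 9.10% of the gene, less than the gene of its receptor chain Itga5. Vtn, encoding vitronectin, a plasma protein made in the liver, had 458 bp at the promoter and no site centred in the gene. Of 5 cell surface ligands, Icam1, Vcam1 and Cdh1 had a site at the promoter and Icam2 and Madcam1 did not. Vcam1, the ligand of the Itga4 receptors, was covered over 43.2% of the gene.

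Of the genes with similar symbols that were left out, Itgb1bp1, whose protein binds the tail of the Itgb1 chain, was covered over all 2001 bp of the window, Itgbl1 over 463 bp, and Itgb3bp and Itgb1bp2, the latter on chromosome X, had no site at the promoter or in the gene.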
